A study of Equus caballus with 24 samples.

Results

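The genes described here are the 57 whose lowest level among 12 equine sarcoids lay well above their highest level among 12 skin controls, out of 30371 genes in the count files and 14930 that passed a filter on low counts. They were chosen from the measured values themselves. A gene entered when its lowest sarcoid value was at least 1.5 times its highest skin value and its mean over the sarcoids was at least 5 CPM, reads of the gene per 1e+06 counted in genes, with each library scaled by edgeR's TMM factors, which correct for differences in composition. A further 8 genes that met both conditions, with ratios from 2.56 to 6.53, were left out by their identifier, and 3 of them had a larger ratio than any of the 57. The groups are 12 pieces of tumour tissue and 12 pieces of skin tissue from horses, with no treatment named, and the labels give neither the age, sex or breed of the animals nor the body site. In 4 sarcoid titles the number ends in an L, whose meaning the labels do not state. Whether the pieces came from separate animals is not stated, so errors and p-values describe the spread between pieces, which may be technical.

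The equine sarcoid is a locally invasive tumour of the skin that grows from fibroblasts and is linked to infection with bovine papillomaviruses. Normal skin, in contrast, is a mixture of epidermal keratinocytes, dermal fibroblasts, vessels, hair follicles and glands. A count of RNA from a piece of tissue reflects both how many cells of a type are present and how much RNA each holds, and in bulk samples like these the 2 cannot be told apart. The files give Ensembl identifiers without names, and the reference table used here matched none of them, so the functions of the members are not described and neither tissue could be checked against the markers of its cell types. The members are numbered below from 1, the largest ratio of lowest sarcoid to highest skin, to 57, the smallest, and that ratio is called the gap. Only members 1 and 45 are given by identifier.

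Of the 14930 genes, 428 (2.87%) had every sarcoid above every skin library, 73 of those had a gap of at least 1.5, and 65 (0.435%) also reached the mean level. The 3 members just inside the gap had ratios of 1.546, 1.543 and 1.539, and the 3 genes just outside had 1.486, 1.486 and 1.482. The members nearest to the level threshold averaged 5.95, 5.96 and 6.93 CPM in sarcoid, and the nearest genes below it 4.94, 4.83 and 4.50 CPM.

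Gene counts per library ranged from 9673480 to 31769803, and the TMM factors from 0.468 in sarcoid 4 to 1.60 in sarcoid 2. Sarcoid 4 stood apart in its reads. Of all its reads 23.9% (95% Wilson interval 23.87 to 23.89) aligned to several places, against at most 6.87% in skin, and 8.11% (8.10 to 8.11) lay in no gene, against at least 19.2% in skin. Intervals on single libraries cover counting error only. Skin 9 and skin 16 were set apart in earlier results of these data. Without these 3 libraries 108 genes met the rule. With only skin 9 left out 93 genes met it, with only skin 16 left out 61, and with only sarcoid 4 left out 62. Leaving libraries out cannot narrow the ratio of lowest sarcoid to highest skin, apart from the rescaling. A larger number thus follows in part from the rule itself, and how large that part is was not tested. Over the 57 members the median log2 difference between the groups was 2.76 without these 3 libraries, against 2.87 with all libraries.

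The gap was between 1.54 and 4.57, with a median of 1.73. It was 2 or more in 19 members and 3 or more in 3. Mean levels in sarcoid spanned 5.95 to 1027 CPM with a median of 52.1, against a median of 14.8 CPM over all genes tested, and mean levels in skin spanned 0.315 to 151 CPM. CPM are not corrected for gene length, so a higher CPM in one gene than in another is not a higher level per length. The lowest count behind a sarcoid value was 15 reads in member 54 and 19 in member 19, and it was a median of 287 reads over the members. The sarcoid side of the separation therefore rests on well-counted values in all but a few members. The lowest skin count was smaller, with a median of 37 reads over the members and 0 in members 17 and 19. The reads behind the highest skin values, which also set the gap, are not given here.

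**Figure D1:**
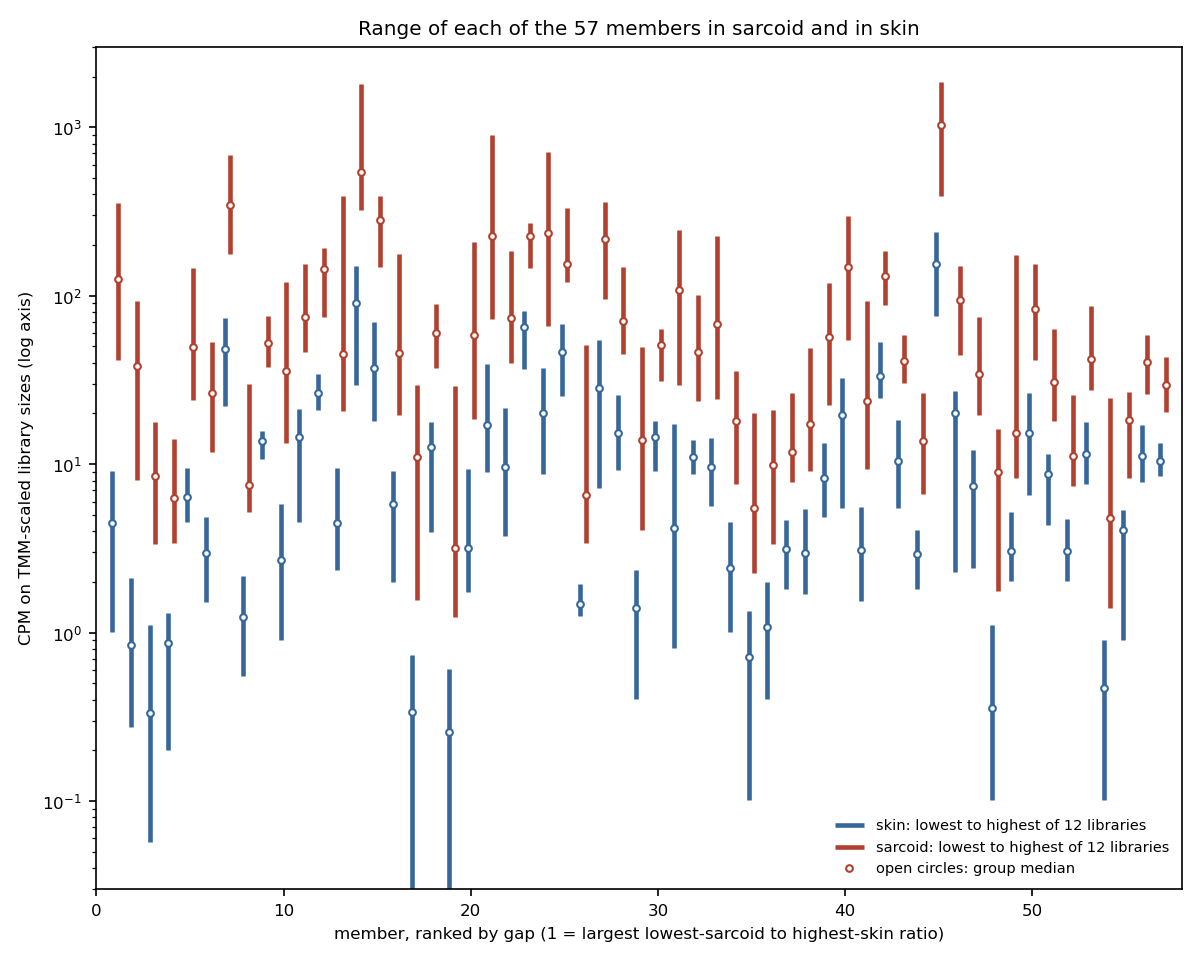
Lowest to highest level of each of the 57 members over 12 skin libraries (blue) and 12 sarcoids (red), in CPM on a log axis, with group medians as open circles and members ordered by gap. Every red bar starts above the top of the blue bar beside it, as the choice of members requires, while the lengths of the red bars differ widely; the blue bars of members 17 and 19 run to the axis because their lowest skin value was 0.

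The ratio of the mean sarcoid level to the mean skin level was 4 or more in 48 members, 8 or more in 24, 16 or more in 9 and 32 or more in 2. The largest were 41.1 in member 17, 37.3 in member 2 and 30.9 in member 1, and the smallest 2.86 in member 57. On the log2 scale the fitted difference, sarcoid minus skin, had a median of 2.87 over the members and 0.02 over all genes tested, with a median standard error of 0.27 for a member. All 57 members passed a Benjamini-Hochberg adjusted threshold of 0.05 in the quasi-likelihood fit of edgeR, which called 27.9% of genes higher in sarcoid and 54.2% in either direction. The members were picked on this contrast, so these values describe them and test nothing.

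Member 1, ENSECAG00000006917, had the widest gap. It lay between 41.4 CPM in sarcoid 10 and 358 CPM in sarcoid 74L, with a median of 126, and between 1.01 CPM in skin 16 and 9.06 CPM in skin 11, with a median of 4.45. The lowest tumour thus stood at 4.57 times the highest skin library and at 8.77 times the skin mean. Sarcoids averaged 146 ± 98.9 CPM and skin 4.72 ± 2.37 CPM (SD over 12 libraries in either group), and the fitted log2 difference was 4.94 ± 0.41 (SE). Sarcoids 10, 2 and 6 were low, at 41.4, 44.4 and 49.8 CPM, and sarcoids 71L, 12 and 74L high, at 218, 283 and 358 CPM. Over the 12 sarcoids, the genes tested whose levels followed member 1 most closely had Spearman correlations of 0.97, 0.97 and 0.96, and none of these 3 genes was a member. The correlations share the libraries and their scaling.

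Member 45, ENSECAG00000007173, had the highest mean CPM of the 57. Its sarcoid levels had a minimum of 392 CPM (sarcoid 2), a median of 1027 and a maximum of 1856 CPM (sarcoid 65L), and its skin levels ran from 75.5 CPM in skin 16 to 239 CPM in skin 11, with a median of 155. Its gap was 1.64, and the nearest libraries were sarcoid 2 at 392 CPM and sarcoid 12 at 440 CPM, below the next sarcoid at 733 CPM. Sarcoids averaged 1027 ± 409 CPM and skin 151 ± 42.4 CPM (SD over 12 libraries in either group), and the fitted log2 difference was 2.76 ± 0.23 (SE). Its order of tumours differed from that of member 1, in which sarcoid 12 was the second highest library. The closest followers of member 45 over the 12 sarcoids had Spearman correlations of 0.94, 0.94 and 0.93, and none was a member.

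**Figure D2:**
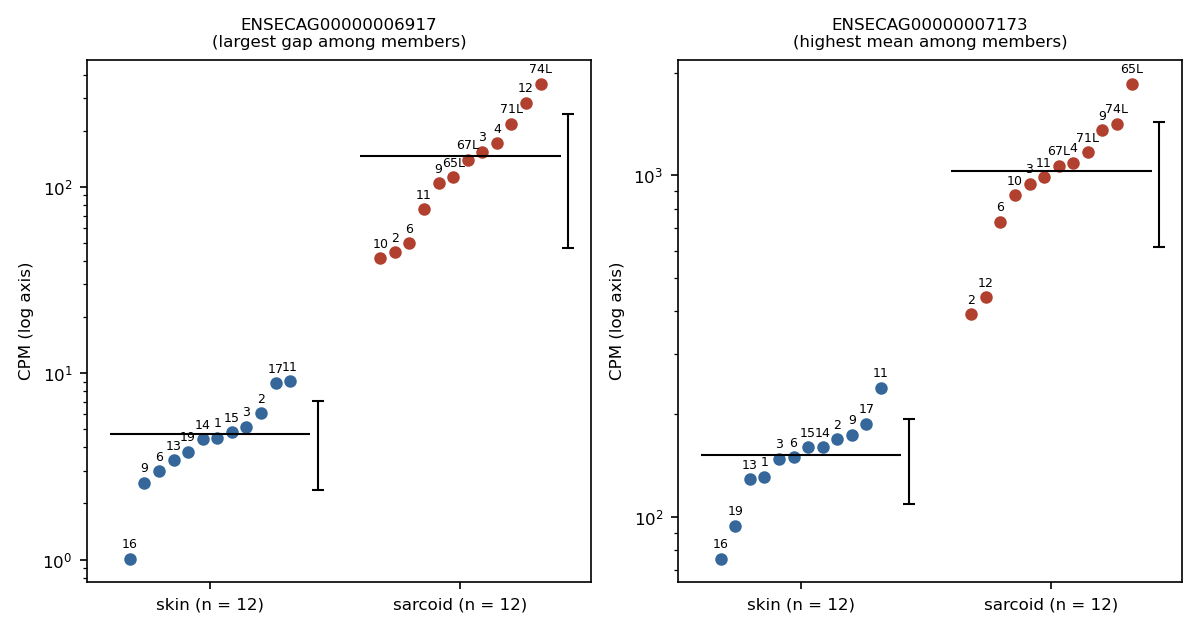
CPM of ENSECAG00000006917 (left) and ENSECAG00000007173 (right) in each of 12 skin libraries (blue) and 12 sarcoids (red), on log axes, each point labelled with its title number; the horizontal line is the group mean and the bar its SD. Skin 16 is the lowest and skin 11 the highest skin library in both genes, whereas sarcoid 12 is near the top on the left, at 283 CPM, and near the bottom on the right, at 440 CPM.

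A set of 8 members averaged under 1 CPM in skin, and 5 of these had a ratio of means of 16 or more. Member 2 had a sarcoid mean of 36.0 ± 26.4 CPM and a skin mean of 0.966 ± 0.505 CPM, with sarcoids 2, 10, 11, 9 and 6 between 8.04 and 15.6 CPM and the others between 38.1 and 93.4 CPM. Member 17 had a sarcoid mean of 12.96 ± 9.87 CPM and a skin mean of 0.315 ± 0.214 CPM, and had no read in 2 skin libraries, skin 9 and skin 16. Its lowest sarcoid was sarcoid 2 at 1.56 CPM, from 24 reads, and its highest sarcoid 71L at 29.4 CPM. Member 48 had means of 9.23 ± 5.11 CPM and 0.421 ± 0.269 CPM (all SD, n = 12 a group). All 8 had reads in at least 10 of the 12 skin libraries, so their skin counts were low rather than 0 throughout.

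How evenly a member was raised differed over the set. The highest sarcoid was under 3 times the lowest in 11 members, 3 to under 10 times in 35, and 10 times or more in 11. The steady members had modest ratios of means, from 2.86 to 6.54 with a median of 3.74, and the variable ones ratios from 6.64 to 41.1 with a median of 15.3. Both properties come from the values that chose the members. Member 23 was the steadiest. It lay between 146 and 271 CPM in sarcoid, with a median of 227, and between 36.8 and 81.7 CPM in skin, with a median of 65.6. Member 9 lay between 37.6 and 76.3 CPM in sarcoid and kept within 10.7 to 15.7 CPM over all 12 skin libraries.

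The spread in sarcoid exceeded that in skin for most members, and for most other genes too. The SD of log2 CPM over the 12 libraries was larger in sarcoid than in skin in 43 of 57 members (75.4%) and in 7650 of 11019 genes (69.4%) with a mean sarcoid level of at least 5 CPM. The median SD over the members was 0.67 in sarcoid and 0.56 in skin, beside 0.46 and 0.36 over those 11019 genes. It was highest in member 17, at 1.45 in sarcoid.

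In 9 members a single tumour stood at 2 times the next highest or more, and in all 9 that tumour was sarcoid 4. Member 13 reached 393 CPM in sarcoid 4 and 103 CPM in sarcoid 12, with the other 10 sarcoids between 20.7 and 63.3 CPM and skin at 9.48 CPM or less. Member 26 reached 50.9 CPM in sarcoid 4 and 13.1 CPM in sarcoid 12, with the other sarcoids between 3.41 and 11.7 CPM. Member 49 reached 175 CPM in sarcoid 4 and 54.7 CPM in sarcoid 12, with the other sarcoids between 8.23 and 21.5 CPM. Sarcoid 12, the second tumour in each of these, is also the second by reads aligned to several places, at 8.81% (95% Wilson interval 8.80 to 8.81). The part of these reads in the result was not tested.

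This pattern was not confined to the members and depended on the scaling. Among the 11019 genes with a mean sarcoid level of at least 5 CPM, 1122 (10.2%) had a sarcoid at 2 times the next or more, and in 879 of them (78.3%) it was sarcoid 4. With libraries scaled by their gene counts alone, 4 members met the same condition, 3 of them (members 13, 26 and 49) with sarcoid 4 highest, at 2.46, 2.10 and 2.07 times the next sarcoid. That was 7.02% of the members, beside 722 of the 11019 genes (6.55%), of which 36.3% had sarcoid 4 highest.

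The members stood at different heights in different tumours. Expressed as log2 CPM minus the mean of the 12 skin libraries, the median over the 57 members was 1.82 in sarcoid 2, 2.02 in sarcoid 6, 2.31 in sarcoid 11 and 2.32 in sarcoid 10. It was 2.67 to 2.98 in the other sarcoids up to sarcoid 12, and 3.17 in sarcoid 4. Sarcoid 2 was the lowest tumour in 31 members, sarcoid 6 in 11 and sarcoid 10 in 9, which together is 51 of 57. Sarcoid 4 was the highest in 18, sarcoid 71L in 8, and sarcoids 12 and 74L in 7 each. Sarcoids 2, 6 and 10 also had the largest shares of reads in no gene, 35.9%, 32.1% and 29.4%, and sarcoids 4 and 12 the smallest, 8.11% and 15.9%. The part of these reads in the order of the tumours was not tested.

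**Figure D3:**
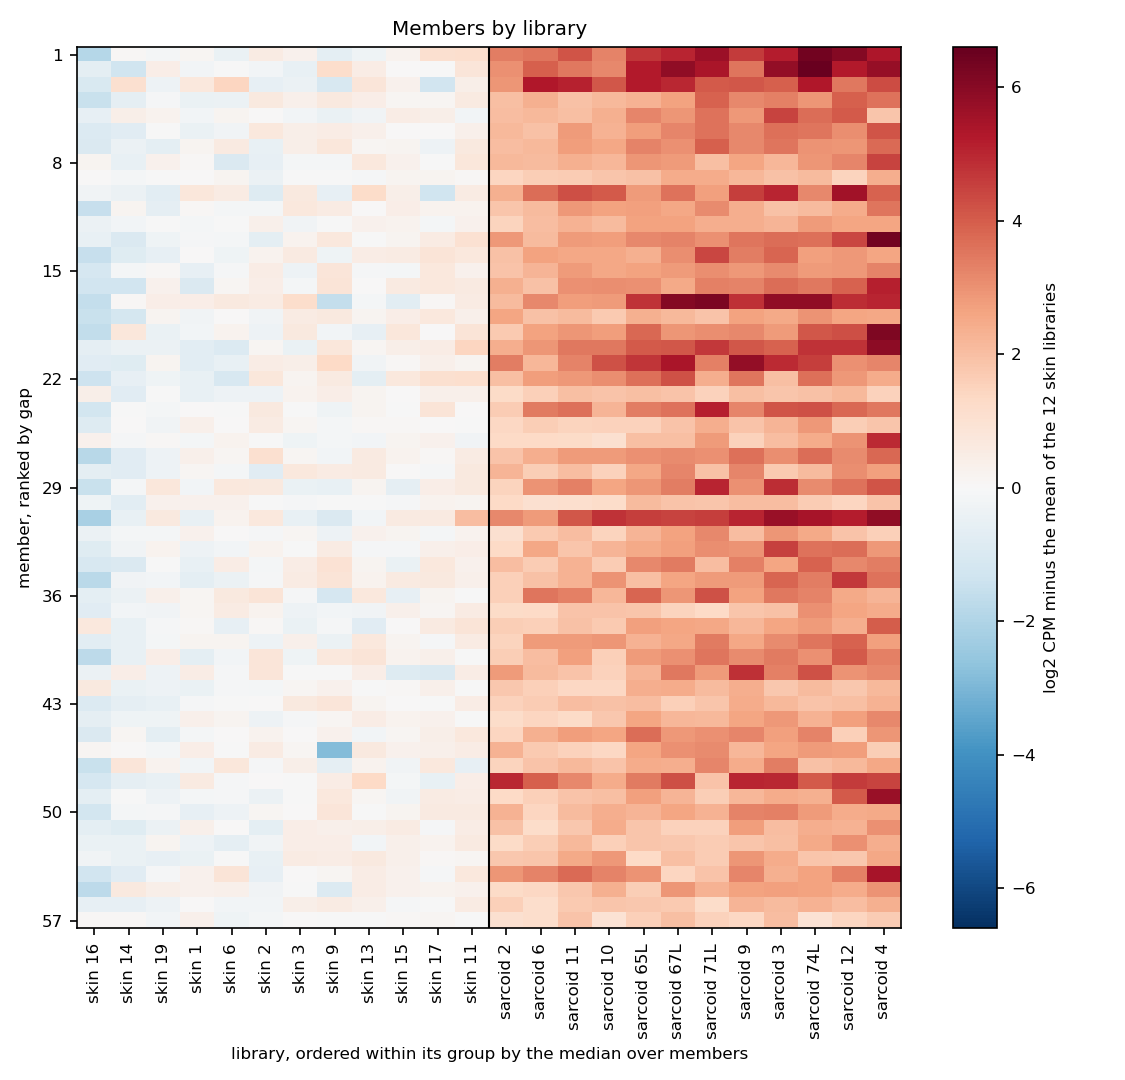
Each of the 57 members (rows, ordered by gap) in each of the 24 libraries (columns, ordered within skin and within sarcoid by the median over members), as log2 CPM minus the mean of the 12 skin libraries. Sarcoid columns are red throughout and deepen from sarcoid 2, with a median of 1.82, to sarcoid 4, with a median of 3.17; skin 16 is the bluest skin column, with a median of -0.79.

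The order of the tumours depended on the scaling, and by library size alone the median log2 difference over the members was 2.51 in place of 2.87. Under it the medians of the sarcoids lay between 1.96 and 2.90, and those of skin between -1.51 and 0.79. Sarcoid 4 then moved from the highest to the lowest median, 1.96, and was the lowest tumour in 20 members, and sarcoid 2 moved to 2.38 and was the lowest in 5. Of the 57 members 47 still had every sarcoid above every skin library under that scaling, beside 191 of all 14930 genes tested (1.28%), and 26 kept a gap of 1.5, beside 53 of all genes (0.355%). The members were chosen for such a gap on the same libraries, so nothing is read from these shares. In 8 members sarcoid 4 was the overlapping tumour. Unscaled, the members' summed counts made up 0.544% ± 0.135 of a sarcoid's gene counts and, for skin libraries, 0.0993% ± 0.0345 (SD over 12 libraries in either group). The lowest sarcoid share was 0.337% in sarcoid 4 (95% Wilson interval 0.334 to 0.341), and the highest skin share was 0.156% in skin 11 (0.154 to 0.157).

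**Figure D4:**
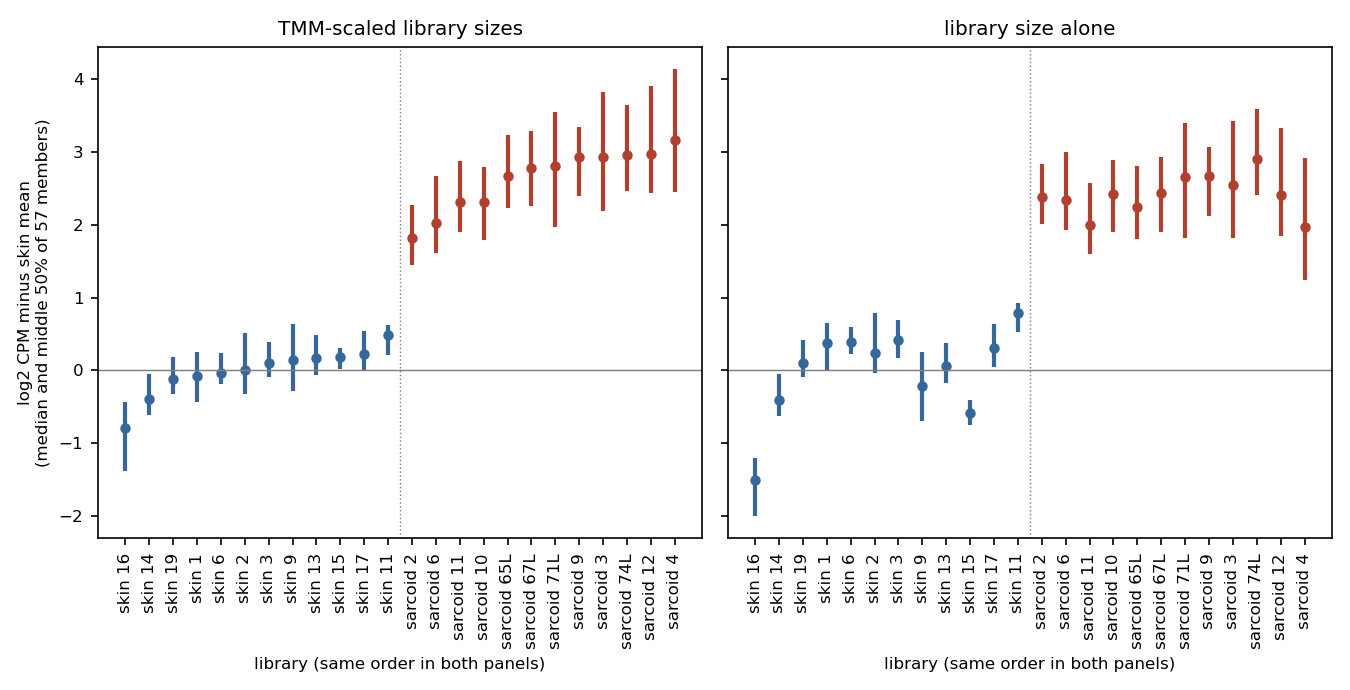
Median (point) and middle 50% (bar) of the 57 members in each library, as log2 CPM minus the mean of the 12 skin libraries, with TMM-scaled library sizes (left) and library size alone (right), libraries in the same order in both panels. The medians of sarcoid (red) lie above those of skin (blue) in both, and sarcoid 4 moves from 3.17 at the top to 1.96 at the bottom of the sarcoids.

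Most members followed a common order of tumours, with exceptions. The median Spearman correlation between 2 members over the 12 sarcoids was 0.40 (1596 pairs, 87.4% above 0), beside 0.16 between genes called higher at 2-fold or more and 0.00 between all genes tested. Over the 12 skin libraries the values were 0.23, 0.10 and 0.00. The pairs share libraries and scaling, and the common order is the one that changed with the scaling. Against the mean of the other members, 39 of 57 had a correlation above 0.5 over the sarcoids, with the highest, 0.91, in member 13. Members 3 and 54 lay at -0.03 and -0.01. Member 3 was highest in sarcoid 6, at 17.9 CPM, where most members were low, and sarcoids 74L, 65L and 11 followed at 17.8, 17.3 and 15.5 CPM. Member 48 was the exception for sarcoid 2, which held 15.7 CPM of it, near the highest tumour at 16.2 CPM. The lowest tumour of member 48 was sarcoid 71L at 1.76 CPM, from 22 reads. Sarcoid 2 lay above the sarcoid median in 3 members in all.

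Among the skin libraries, skin 16 was the lowest in 33 of 57 members and had a median of -0.79 from the skin mean. Skin 11, the deepest library, had the highest median, 0.48, and the highest value in 10 members, and skin 9 had the highest value in 13. The median in skin 9 was 0.14, within the range of the other skin libraries. Single values departed from it: member 46 lay at 2.28 CPM in skin 9 and between 15.8 and 27.26 CPM in the other 11 skin libraries, while its sarcoids lay between 44.5 and 149 CPM.

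The same rule was applied with each library left out, and the left-out library was then compared with the other group, a value that the choice had not used. With any 1 of 21 libraries left out, 57 to 68 genes met the rule, and the left-out library fell on its own side of the other group in 96.8% to 100% of them. The exceptions were sarcoid 2, skin 9 and skin 11. Without sarcoid 2, 162 genes met the rule, and sarcoid 2 lay above every skin library in 115 of them (71%). Without skin 9, 93 genes met the rule and skin 9 lay below every sarcoid in 80 (86.0%). Without skin 11, 85 genes met it and skin 11 lay below every sarcoid in 74 (87.1%). Of the single libraries, sarcoid 2 thus moved the number of members most. In every run 55 to 57 of the genes were among the 57 members, which lie on their own side by choice. A large part of most of these shares was therefore set in advance. Among the other genes, sarcoid 2 lay above every skin library in 59 of 106. Skin 9 lay below every sarcoid in 23 of 36, and skin 11 in 17 of 28. These other genes were themselves chosen for the gap in the remaining libraries. No share over all genes tested is given beside these counts, so nothing further is read from them.

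**Figure D5:**
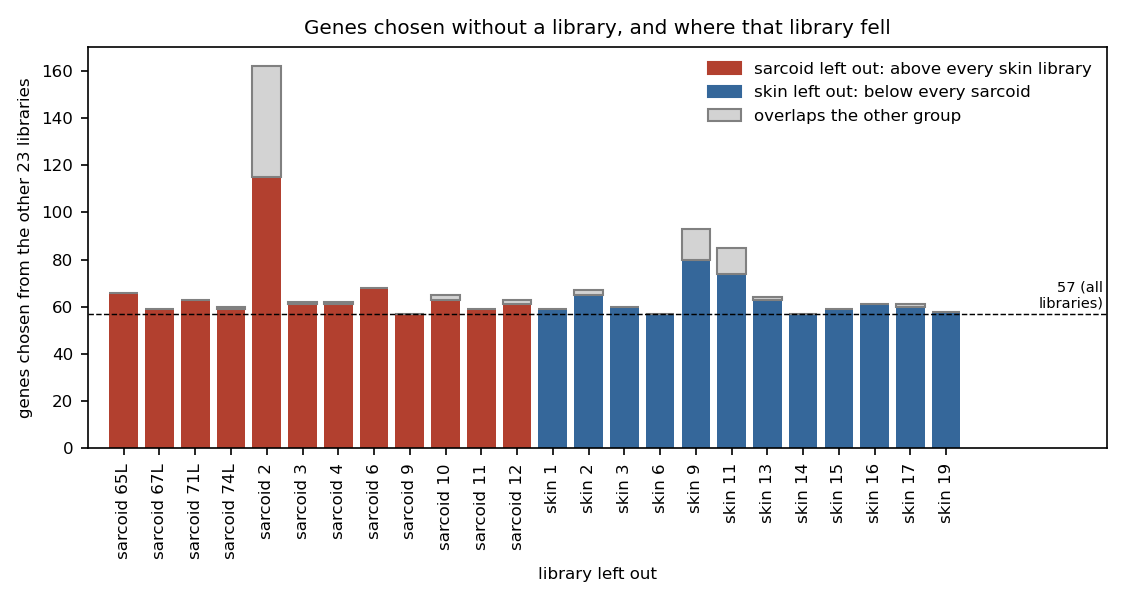
Number of genes that met the rule when 1 library was left out (bar height) and, of these, the number in which the left-out library fell on its own side of the other group (red for a sarcoid, blue for skin) or overlapped it (grey); the dashed line marks the 57 members. Sarcoid 2 stands out with 162 genes and 47 in grey, followed by skin 9 with 93 and 13 and skin 11 with 85 and 11.

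Title numbers 2, 3, 6, 9 and 11 occur in both groups, without a statement that they mark an animal. Between the sarcoid and the skin piece of a number, the median log2 difference over the members was 1.72 for number 2, 2.92 for number 3, 2.18 for number 6, 2.50 for number 9 and 1.96 for number 11. The same median over all genes tested lay between -0.05 and 0.00. The members at 2-fold or more numbered 52, 57, 54, 57 and 56 of 57, so in number 2 there were 5 members below 2-fold. The members were chosen for a gap on these same libraries, so nothing is read from the height of these medians and counts. The share of all genes tested at 2-fold or more is not given here.

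The sarcoids with an L in the title were compared with the other sarcoids, a contrast the choice of members did not use. No member passed the adjusted threshold (4 against 8 libraries, quasi-likelihood fit of edgeR, p adjusted over 15246 genes by Benjamini-Hochberg, lowest adjusted p of a member 0.465), and neither did any other gene, a background of 0%. DESeq2 called 135 of the 15246 genes and no member. At an unadjusted p under 0.05, 6 of 57 members were higher in the tumours with an L, against 4.55% of all genes tested, and 9 of 57 differed in either direction, against 9.06%. The median log2 difference over the members, L minus the others, was 0.16 and that over all genes -0.05.

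Among the 57 members, the single largest difference of that contrast in each direction was in a member of low CPM. The next in each direction were member 10, at -1.30 ± 0.47 (SE), and member 2, at 1.20 ± 0.56 (SE). Their sarcoid means were 44.6 and 36.0 CPM. Member 54 averaged 2.77 CPM with an L and 7.55 CPM without, a log2 difference of -1.42 ± 0.57 (SE, edgeR adjusted p = 0.515). Member 17 averaged 22.1 CPM with an L and 8.41 CPM without, a difference of 1.40 ± 0.62 (SE, edgeR adjusted p = 0.544). Member 1 averaged 207 CPM with an L and 116 CPM without, a difference of 0.85 ± 0.51 (SE, edgeR adjusted p = 0.626). Member 45 averaged 1378 and 852 CPM, a difference of 0.69 ± 0.33 (SE, edgeR adjusted p = 0.558). With errors of this size a 2-fold difference could go uncalled in these members. The difference was above 0 in 38 of the 57 members (66.7%), beside 45.7% of all genes tested. Without sarcoids 2, 6 and 10, none of which has an L, the difference was above 0 in 19 of the 57, beside 48.4% of all genes tested. These tumours were picked after their values were seen, as the lowest in 51 of 57 members. Leaving them out raises the mean of the tumours without an L by construction, so nothing is read from this fall.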

How the data were processed

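RNA was measured in 12 sarcoids and 12 skin controls. Per the labels' protocols, tissue RNA was taken out with TRIzol plus a column kit and cleared of ribosomal RNA, and all libraries were sequenced as paired ends in 1 pool. The deposited values are counts of reads per gene, not normalized. The tools in the submitters' processing notes are TopHat2, HTSeq, FastQC and DESeq2, with the build EquCab3.0. Neither versions nor the strand setting nor the annotation is given in the sources used. The 5 summary rows of each file, 72.6% to 86.6% of its total, entered neither library sizes nor tests. Since 1 of these rows holds reads with several alignments, genes with near-identical copies, and overlapping or antisense genes, are uncertain. A reference table of 39335 horse genes matched none of the identifiers, so the gene lists and cell type markers drawn up for this tissue were not used.

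Counts were analysed with R 4.3.3 and edgeR 4.0.16 (filterByExpr, TMM, quasi-likelihood test, Benjamini-Hochberg at 0.05; SE is the log2 difference over the square root of F). Log2 CPM had a prior count of 2. Alternatives used DESeq2 1.42.0 and limma 3.58.1. The fit was tested on simulated data in which far fewer genes changed than were called here, with as many raised as lowered. That simulation therefore does not test how the scaling acts on these libraries. Figures used matplotlib 3.10.9. The rule for naming took the member with the widest gap and that with the highest mean; members described by number were chosen after their values were seen. The members and lists were chosen with earlier results of these data known.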

Additional observations from a re-analysis of the deposited data

Results flagged for a closer look

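In 3 sarcoids a class of reads that enters no gene count was more frequent than in any skin library. The share with several alignments was 23.9% in sarcoid 4 (Wilson 95% bounds 23.87 and 23.89) and 8.81% in sarcoid 12 (8.80 and 8.81), against at most 6.87% in skin. In sarcoid 2, 35.9% of reads lay in no gene (35.93 to 35.95), against at most 35.6% in skin. Sarcoids 4 and 12 were the libraries in which the members had their highest medians under TMM scaling, and sarcoid 2 the one with the lowest. Single samples far from the rest of their group were also looked for, by the gap to the nearest sample over the group's range. None was found in 7 groups of values: the member share, ENSECAG00000006917 and ENSECAG00000007173 among tumours with and without an L, and the medians of the 5 shared title numbers.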

How the results depend on the processing

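The number of members was 57 with RLE factors, with no filter and with a filter of 1 CPM in 12 libraries, 65 with upper-quartile factors, of which 55 were among the 57, and 58 with libraries thinned to the smallest, of which 52 were. It was 38 by library size alone, of which 25 were among the 57; the cause was not tested. It was 396 with a gap of 1 and 19 with a gap of 2, as the condition itself sets. Leaving out 1 library gave 57 to 162 genes, the most without sarcoid 2 and 93 without skin 9. It was 105 without skin 9 and skin 16, 85 without the tumours with an L and, in alternatives chosen after seeing the data, 235 without sarcoids 2, 6 and 10, 108 without skin 9, skin 16 and sarcoid 4 and 78 without skin 2, skin 17 and skin 19, whose files have other line ends.

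Without the 2 most abundant genes of the files the members took 0.760% of sarcoid counts, since the total is smaller. The fit called 8091 genes, 7797 to 8304 with a library left out. With library size alone it called 2116 higher and 3645 lower, against 4165 and 3926. The median log2 difference over the members was 2.33 to 2.97 in all alternatives run, and no named member lost its call. No member was called between tumours with and without an L in any alternative.

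Same-numbered pieces did not all deviate together: their correlations ran from -0.03 to 0.49, with 2 of 5 above 0.1 (numbers 6 and 9), and 1 of 5 sarcoids, number 9, was closest to its own number. The main fit did not use the numbers to pair the pieces, because the labels do not state that equal numbers mark 1 animal. The 5 correlations cannot decide that. Over those 10 libraries a replicate block gave 1996 genes, and 2504 without the block. With the block the log2 difference was 4.04 for ENSECAG00000006917 and 2.25 for ENSECAG00000007173. Depth limits members 17, 19, 48 and 54 most, with 24, 19, 22 and 15 reads in their lowest sarcoid.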
